A study of Rattus norvegicus with 16 samples.

Results

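Lactate dehydrogenases and monocarboxylate transporters were examined in the soleus muscle of rats bred for running capacity. The genes were Ldha and Ldhb, which encode the A and B subunits of lactate dehydrogenase, Slc16a1 and Slc16a3, which encode the transporters MCT1 and MCT4, and Bsg, which encodes basigin. They were found as the probe sets to which the platform annotation gives one of these symbols and no other. All 5 genes were measured, of 14217 genes on the array, by 6 of the 31042 probe sets tested: Slc16a1 had 2 and each other gene had 1. Every rat was a female of generation 16 of a line selected from N:NIH stock for high running capacity (HCR) or low running capacity (LCR), about 7 months old. In each line 4 rats ran uphill intervals for 8 weeks (1.5 hours a session, 5 days a week, at 85 to 90% of maximal oxygen uptake, 25 degrees of incline), and 4 age-matched rats stayed sedentary. All were killed 48 hours after the last session of the trained rats, and 1 array was made from each rat's soleus, 16 in all. The RNA came from 20 mg of muscle tissue with all its cell types. Fewer cells of a type and less RNA per cell therefore cannot be told apart in any value here.

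Lactate dehydrogenase interconverts pyruvate and lactate as a tetramer of A and B subunits. A-rich tetramers prevail in fast glycolytic muscle, and B-rich tetramers in heart and slow oxidative muscle such as the soleus. MCT1 and MCT4 carry lactate across the cell membrane together with a proton; MCT1 is abundant in oxidative fibres and MCT4 in glycolytic fibres. Both need basigin, a membrane glycoprotein, to reach the cell surface. Endurance training is commonly studied for its effect on these carriers, and the 4 groups allow the effect of training to be read in each line and the lines to be compared in each training state.

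The genes with the widest spread over the arrays were Ldha, Ldhb and Slc16a3, and the 250 bases before their transcription starts are shown here, since Ldha and Slc16a3 were both at their highest on the array on which Ldhb was at its lowest. The sequences are RefSeq's, on GRCr8, for Ldha at chr1:106507842-106508091 on the plus strand, for Ldhb at chr4:177177409-177177658 on the minus strand and for Slc16a3 at chr10:106712078-106712327 on the plus strand. Capitals mark ACGTG or its reverse complement CACGT, a form of the core that hypoxia-inducible factors bind. AAGGTCA, a half-site of the oestrogen-related receptors, was searched for on both strands as well. The other form of the core, GCGTG, was not searched for or marked.
Ldha: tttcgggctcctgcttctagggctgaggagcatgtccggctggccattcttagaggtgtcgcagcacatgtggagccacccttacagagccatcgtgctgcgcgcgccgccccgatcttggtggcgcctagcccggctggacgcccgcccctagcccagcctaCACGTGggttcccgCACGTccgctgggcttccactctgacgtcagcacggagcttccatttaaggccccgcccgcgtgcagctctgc
Ldhb: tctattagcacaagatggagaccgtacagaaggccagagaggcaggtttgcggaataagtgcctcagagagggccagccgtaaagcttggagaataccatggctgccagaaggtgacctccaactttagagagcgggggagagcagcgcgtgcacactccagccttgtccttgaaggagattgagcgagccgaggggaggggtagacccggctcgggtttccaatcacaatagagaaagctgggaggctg
Slc16a3: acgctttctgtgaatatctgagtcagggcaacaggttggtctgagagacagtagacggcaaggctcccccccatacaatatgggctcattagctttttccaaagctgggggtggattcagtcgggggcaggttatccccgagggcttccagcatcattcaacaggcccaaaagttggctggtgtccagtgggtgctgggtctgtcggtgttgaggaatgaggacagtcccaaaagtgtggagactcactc
The Ldha window held ACGTG 3 times, counting both strands. The matches that begin 87 and 86 bases before the start are one palindromic CACGTG read on both strands, which is also the E-box of other factors, and the remaining match begins 73 bases before the start. Neither the Ldhb nor the Slc16a3 window held ACGTG, while the windows of Slc16a1 and Bsg held 2 and 3 matches, of which 2 in each are again a CACGTG read on both strands. Of all 33469 RefSeq windows of this length, 16.6% held ACGTG, 5.59% CACGTG and 3.99% AAGGTCA. None of the 5 windows held AAGGTCA. A match is a description of the letters, and no match says only that these letters are not in this window.

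Levels are the deposited log2 values, in which 1 unit is a doubling of signal, and they are compared only within a probe set. The arrays were alike in overall level, with medians of 5.91 to 5.98, and their values correlated with Pearson coefficients of 0.941 to 0.996. The array labelled HCR trained 3 stood apart in the genes that define slow muscle. Myh7, the slow myosin heavy chain, read 12.05 there and 14.27 to 14.52 on the other arrays, and Tnnt1, slow troponin T, read 10.19 there and 13.58 to 14.13 elsewhere. The mean of 11 slow-fibre genes, each centred on its mean over the arrays, was -2.19 on that array and between -0.04 and 0.24 on the other 15. These levels go against the label of soleus for that array. Whether the tissue was soleus was not tested, and the array is part of every trained HCR value below unless it is said to be left out. The mean of 13 fast-fibre genes was 2.44 on it, 0.24 to 0.93 on the other HCR trained arrays, -0.83 to 0.24 in sedentary HCR, -1.10 to -0.10 in sedentary LCR and -0.48 to 0.11 in trained LCR. Myh4, the fastest myosin heavy chain, was the fast-fibre gene of the 13 that passed the test for training in HCR (log2 difference 5.09, SE 0.87, adjusted p = 0.0475 in limma). Without HCR trained 3, Myh4 (4.15, adjusted p = 0.0424) and Pvalb (2.81, adjusted p = 0.0258) passed in limma, where 0.612% of all probe sets passed. In that fit 9 of the 13 fast-fibre differences were positive and 4 negative. A further array stood apart in other cells' genes: on HCR sedentary 2 the mean of 11 fibroblast and matrix genes was at its highest (1.90, against -0.37 to 0.09 on the other sedentary HCR arrays) and so was that of 11 leukocyte genes (1.43, against -0.25 to 0.22). On LCR trained 2 the same means were 1.25 and 0.55. HCR sedentary 2 also had the lowest ratio of the beta-actin control probe sets (3' end against middle, log2), 0.38. The other arrays had ratios of 1.06 to 2.37, and fits with this ratio as a covariate are among the alternatives below. The means of endothelial, smooth muscle, Schwann cell and erythrocyte genes stayed between -0.49 and 0.49 on all arrays, and that of adipocyte genes ranged from -0.98 to 1.44.

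None of the 6 probe sets passed in any of the 7 comparisons at an adjusted p under 0.05, with p adjusted by Benjamini-Hochberg over all 31042 probe sets. The share of all probe sets that passed was 0.187% for training in HCR, 0.00322% for training in LCR, 0.00966% for HCR against LCR in sedentary rats and 0.374% for HCR against LCR in trained rats. It was 0% for the interaction of line and training (5673 probe sets had an unadjusted p under 0.05), 0.00644% for training over both lines and 0.087% for line over both training states. An unadjusted p under 0.05 was seen for 1 of the 6 probe sets, Slc16a3, for training in HCR, where 17.7% of all probe sets had one. For training in HCR, 3 of the 6 differences were positive and 3 negative, with a median of -0.0096 against 0.0044 over all probe sets. The counts were 3 and 3 for training in LCR as well, 2 positive and 4 negative for HCR against LCR in sedentary rats, and 3 and 3 in trained rats.

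**Figure D1:**
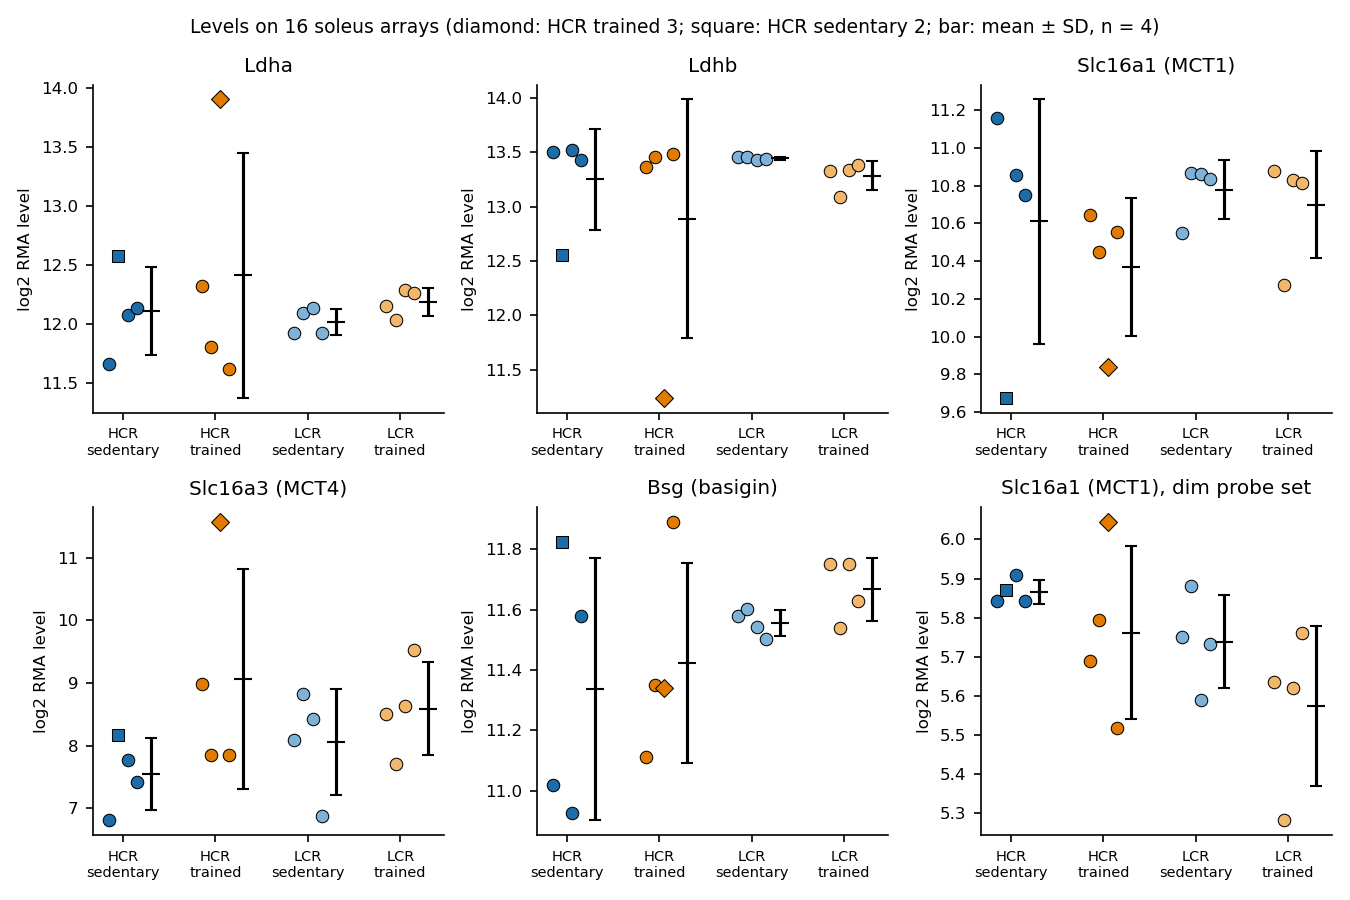
Each panel plots the log2 level of 1 probe set on the 16 arrays, in groups of 4, with points for arrays and a bar for the mean ± SD. HCR trained 3 (diamond) is the highest point for Ldha, Slc16a3 and the dim Slc16a1 probe set, and the lowest for Ldhb. HCR sedentary 2 (square) is the lowest for the brighter Slc16a1 probe set.

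Ldha, the subunit of A-rich tetramers, read 11.67, 12.58, 12.08 and 12.14 in sedentary HCR rats and 12.32, 11.81, 13.91 and 11.62 in trained HCR rats. The trained group thus held both the highest and the lowest of the 16 values. In sedentary LCR rats it read 11.93, 12.09, 12.14 and 11.93, and in trained LCR rats 12.16, 12.04, 12.29 and 12.26, so that the LCR groups overlapped within a narrow range. In order, the means were 12.42 ± 1.04 in trained HCR, 12.19 ± 0.12 in trained LCR, 12.11 ± 0.37 in sedentary HCR and 12.02 ± 0.11 in sedentary LCR (SD, n = 4 each), and no neighbours in this order differed beyond their spread. Training in HCR gave a log2 difference of 0.30 (SE 0.36, 95% interval -0.47 to 1.07, adjusted p = 0.709 in limma). Without HCR trained 3 it was -0.20 (SE 0.18, adjusted p = 0.564), so the sign rested on that array. With the fibre index of each array (slow minus fast marker mean) as a covariate it was -0.62 (adjusted p = 0.0443), and -0.63 (adjusted p = 0.0957) when HCR trained 3 was also left out. The share of all probe sets that passed with this covariate is not given here, and over the alternatives 0 to 1304 passed for training in HCR. Without HCR trained 3, trained HCR against trained LCR also changed sign, from 0.23 (95% interval -0.54 to 0.99) to -0.27. Training in LCR gave 0.17 (95% interval -0.60 to 0.93), and HCR against LCR in sedentary rats 0.09 (95% interval -0.67 to 0.86). The value 13.91 was 3.52-fold above the median of 13 arrays, those left when HCR trained 3, HCR sedentary 2 and LCR trained 2 are set aside, and 0.876% of all probe sets lay at least as far from that median on this array. The RefSeq table lists 30 Ldha pseudogenes, and whether the probes also read transcripts of such copies was not tested.

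Ldhb, the subunit of B-rich tetramers, was nearly constant on most arrays. It read 13.50, 12.55, 13.52 and 13.43 in sedentary HCR rats and 13.37, 13.46, 11.24 and 13.48 in trained HCR rats, so that 1 array in each group lay well below the other 3. In sedentary LCR rats it read 13.46, 13.46, 13.43 and 13.43, a mean of 13.44 ± 0.01, and in trained LCR rats 13.32, 13.09, 13.34 and 13.39, a mean of 13.29 ± 0.13. Every trained LCR value lay below every sedentary LCR value, as it did, in this direction, for 5.61% of all probe sets. The difference was -0.16 (SE 0.39, 95% interval -0.98 to 0.67, adjusted p = 0.914 in limma), a fit that pools the spread of all 4 groups. In a fit lacking both HCR sedentary 2 and HCR trained 3 the difference had an SE of 0.06 and an adjusted p of 0.249. The means in HCR were 13.25 ± 0.47 in sedentary and 12.89 ± 1.10 in trained rats (SD, n = 4), and training in HCR gave -0.36 (95% interval -1.19 to 0.46, adjusted p = 0.668). That difference became 0.19 without HCR trained 3 and -0.05 (SE 0.07) without both arrays. HCR against LCR gave -0.19 (95% interval -1.02 to 0.63) in sedentary rats and 0.04 without HCR sedentary 2, and -0.40 (95% interval -1.22 to 0.43) in trained rats and 0.15 without HCR trained 3. On HCR trained 3 Ldhb was 4.57-fold below the median of the 13 arrays, and on HCR sedentary 2 it was 1.84-fold below.

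The balance of the subunits was followed as Ldha minus Ldhb on each array. Its size compares a pair of probe sets and is no ratio of transcripts, so only its differences between arrays are read. It was -1.83, 0.03, -1.44 and -1.29 in sedentary HCR and -1.04, -1.65, 2.66 and -1.86 in trained HCR, and HCR trained 3 was the array on which it was furthest towards Ldha. In sedentary LCR the balance ranged from -1.53 to -1.29 and in trained LCR from -1.17 to -1.05. The LCR groups did not overlap, and the mean of the trained rats lay 0.33 further towards Ldha. Of the genes in the balance, Ldhb alone did not overlap either, as in its direction for 5.61% of all probe sets, and Ldha did overlap. How often other pairs of probe sets do the same was not tested. In trained against sedentary HCR rats the mean balance differed by 0.66 with all arrays, by -0.38 without HCR trained 3 and by 1.05 without HCR sedentary 2. No p was computed for the balance, since it is a score over members and is given as a description. Its genes were chosen with earlier results known.

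MCT1 was read by 2 probe sets of Slc16a1. The brighter one read 11.16, 9.67, 10.86 and 10.75 in sedentary HCR rats and 10.65, 10.45, 9.84 and 10.56 in trained HCR rats. The groups overlapped, since the sedentary value of 9.67 was the lowest of the 16. Each trained HCR rat lay below the other sedentary ones. How many of all probe sets separate with that array set aside was not counted. Sedentary LCR rats read 10.55, 10.87, 10.87 and 10.84, and trained LCR rats 10.88, 10.27, 10.83 and 10.81, each group with 1 array below 3 close ones. The means were 10.78 ± 0.16 in sedentary LCR, 10.70 ± 0.28 in trained LCR, 10.61 ± 0.65 in sedentary HCR and 10.37 ± 0.37 in trained HCR (SD, n = 4 each), and no neighbours differed beyond their spread. Training in HCR gave -0.24 (SE 0.26, 95% interval -0.80 to 0.32, adjusted p = 0.680 in limma). It was -0.55 (SE 0.19, adjusted p = 0.268) without HCR sedentary 2, -0.06 without HCR trained 3 and -0.37 (SE 0.15, adjusted p = 0.241) without both. Training in LCR gave -0.08 (95% interval -0.64 to 0.48). HCR against LCR gave -0.17 (95% interval -0.73 to 0.39) in sedentary rats, 0.14 without HCR sedentary 2, and -0.33 (95% interval -0.89 to 0.23) in trained rats, -0.15 without HCR trained 3. The second probe set was dim, with a mean of 5.73 against 5.61 at the 40th percentile of probe sets, and ranged from 5.28 to 6.05. Its differences lay between -0.16 and 0.19 in the 4 comparisons of groups, with the sign opposite to the brighter probe set in HCR against LCR in both training states.

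The low values of Slc16a1 and Ldhb on HCR sedentary 2 and LCR trained 2 came with the highest means of the fibroblast and matrix list. Over the groups that list ranged from -0.37 to 1.90 in sedentary HCR, -0.76 to -0.37 in trained HCR, -0.65 to 0.21 in sedentary LCR and -0.33 to 1.25 in trained LCR. On HCR trained 3, where Slc16a1 read 9.84 and Ldhb 11.24, the list was at its lowest, -0.76. The part of these marker genes in the levels of Slc16a1 and Ldhb was not tested.

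**Figure D2:**
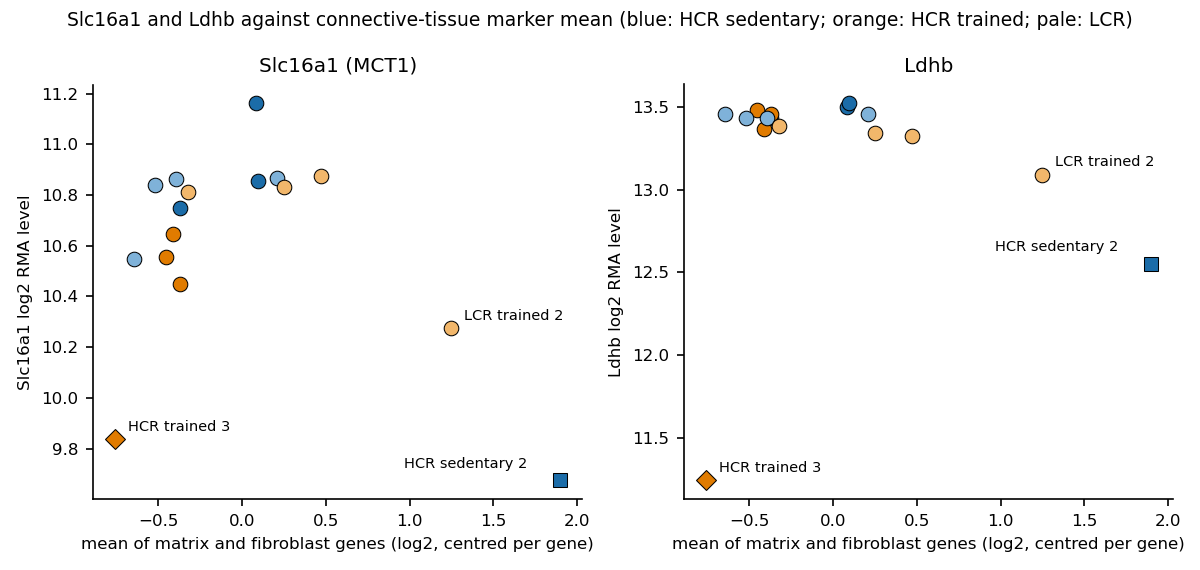
The log2 level of Slc16a1 (left) and Ldhb (right) is plotted against the mean of 11 fibroblast and matrix genes on the 16 arrays, with blue for sedentary HCR, orange for trained HCR and the pale shades for LCR. HCR sedentary 2 (1.90) and LCR trained 2 (1.25) lie to the right with low values of both genes, and HCR trained 3 lies low at the left.

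Slc16a3, which encodes MCT4, varied most of the 6 probe sets, from 6.81 to 11.58. It read 6.81, 8.16, 7.77 and 7.42 in sedentary HCR rats and 8.98, 7.84, 11.58 and 7.86 in trained HCR rats. All trained HCR values were above 3 of the 4 sedentary ones, and the groups overlapped through HCR sedentary 2. How many of all probe sets do the same was not counted. In sedentary LCR rats it read 8.09, 8.83, 8.43 and 6.88, and in trained LCR rats 8.50, 7.71, 8.63 and 9.53. The means were 9.06 ± 1.76 in trained HCR, 8.59 ± 0.74 in trained LCR, 8.06 ± 0.84 in sedentary LCR and 7.54 ± 0.57 in sedentary HCR (SD, n = 4 each). Training in HCR gave a log2 difference of 1.52 (SE 0.69, 95% interval 0.04 to 3.003, a fold of 2.87), with an unadjusted p of 0.0445 and an adjusted p of 0.269 in limma. Without HCR trained 3 it was 0.69 (SE 0.49, adjusted p = 0.438), and with the fibre index as a covariate it was -0.11 (adjusted p = 0.898). Training in LCR gave 0.54 (95% interval -0.94 to 2.02, adjusted p = 0.820), and training over both lines 1.03 (95% interval -0.02 to 2.08, adjusted p = 0.531), which was 0.61 (SE 0.33, adjusted p = 0.454) without HCR trained 3. The difference between the lines in their response to training was 0.98 (SE 0.98, 95% interval -1.11 to 3.08, adjusted p = 0.623). Without HCR trained 3 that difference was 0.15 (SE 0.67, adjusted p = 0.927). HCR against LCR gave -0.51 (95% interval -1.99 to 0.97) in sedentary rats and 0.47 (95% interval -1.01 to 1.95) in trained rats, which was -0.37 without HCR trained 3. The value 11.58 was 11.2-fold above the median of the 13 arrays, and 0.119% of all probe sets lay at least as far away on that array.

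The balance of the transporters, Slc16a3 minus Slc16a1 by its brighter probe set, was -3.07 ± 1.17 in sedentary HCR, -1.31 ± 2.08 in trained HCR, -2.72 ± 0.85 in sedentary LCR and -2.11 ± 0.57 in trained LCR (SD, n = 4 each). As for the LDH subunits, only differences between arrays are read from it. HCR trained 3 stood furthest towards Slc16a3, at 1.74, and the other 15 arrays lay between -4.35 and -1.29. Without HCR trained 3 the trained HCR mean lay 0.75 above the sedentary mean.

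**Figure D3:**
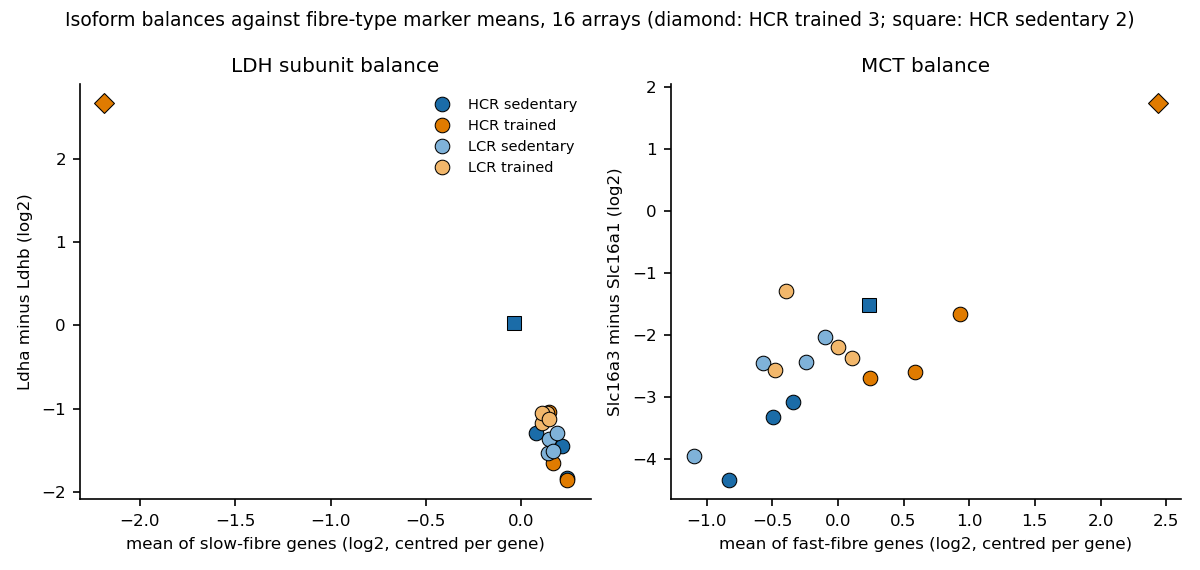
The left panel plots Ldha minus Ldhb (log2) against the mean of 11 slow-fibre genes and the right panel Slc16a3 minus Slc16a1 (log2) against the mean of 13 fast-fibre genes, 1 point per array. HCR trained 3 (diamond) lies at 2.66 and 1.74, away from the other arrays, and HCR sedentary 2 (square) has the next highest LDH balance, 0.03.

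Bsg, which encodes the chaperone of both transporters, varied least of the brighter probe sets, from 10.93 to 11.89. It read 11.02, 11.83, 10.93 and 11.58 in sedentary HCR rats and 11.11, 11.35, 11.34 and 11.89 in trained HCR rats. Sedentary LCR rats read 11.58, 11.60, 11.54 and 11.50, and trained LCR rats 11.75, 11.54, 11.75 and 11.63. The HCR values spread more widely than the LCR values in both training states. Training gave 0.09 in HCR (95% interval -0.30 to 0.48), 0.25 without HCR sedentary 2 (SE 0.17, adjusted p = 0.563), and 0.11 in LCR (95% interval -0.28 to 0.50). HCR against LCR gave -0.22 in sedentary rats (SE 0.18, 95% interval -0.61 to 0.17, adjusted p = 0.738 in limma) and -0.24 in trained rats (95% interval -0.63 to 0.15, adjusted p = 0.476). Over both training states the difference of HCR from LCR was -0.23 (SE 0.13, adjusted p = 0.542). Without HCR sedentary 2 the sedentary difference was -0.38 (SE 0.17, unadjusted p = 0.0385, adjusted p = 0.990). On HCR trained 3, where 3 of the other genes were at an extreme by their brightest probe sets, Bsg read 11.34. It differed there by -0.24 from the median of the 13 arrays, a distance that 34.6% of all probe sets reached.

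**Figure D4:**
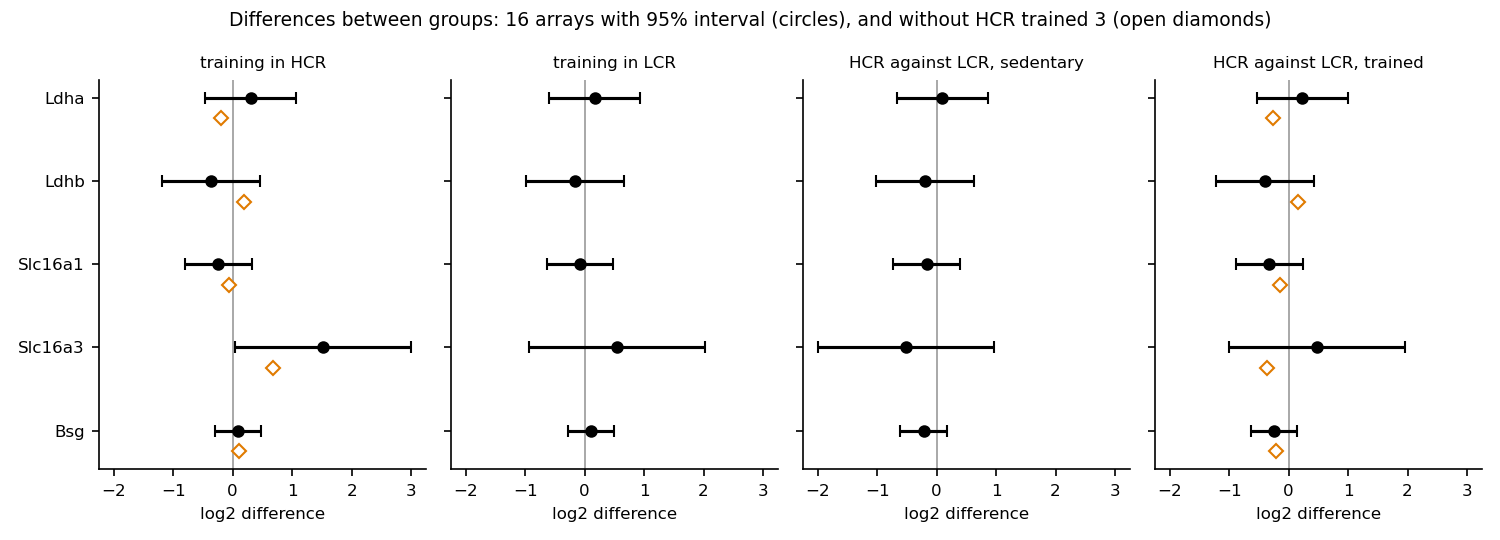
Log2 differences of the 5 genes (Slc16a1 by its brighter probe set) in 4 comparisons are shown with 95% intervals from the fit to 16 arrays (circles), and without HCR trained 3 (open diamonds, for the comparisons that array enters). The interval of Slc16a3 for training in HCR, 0.04 to 3.003, is the one that leaves out 0, and the diamonds of Ldha and Ldhb for both comparisons with trained HCR, and of Slc16a3 for trained HCR against LCR (0.47 to -0.37), lie on the other side of 0 from their circles.

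Other dehydrogenases and carriers of lactate and pyruvate were few on the array, and none passed in any comparison. Of 3 further lactate dehydrogenase genes, Ldhd, the mitochondrial enzyme for D-lactate, read 8.14, 6.68, 7.90 and 7.91 in sedentary HCR rats and 8.21, 8.30, 8.18 and 8.41 in trained HCR rats. These groups did not overlap (training in HCR 0.62, SE 0.24, adjusted p = 0.198 in limma), as was the case in this direction for 4.94% of all probe sets, and the low value was again HCR sedentary 2. Without that array the difference was 0.30 (adjusted p = 0.358). Ldhd was at 8.03 to 8.34 in sedentary LCR and 7.67 to 8.24 in trained LCR. Of 9 other carriers, Slc16a7, which encodes MCT2, read 8.02, 6.22, 7.78 and 7.01 in sedentary HCR and 6.75, 6.82, 4.21 and 7.34 in trained HCR rats, where the lowest value was HCR trained 3. In LCR it read 7.58 to 8.77 in sedentary and 6.30 to 7.42 in trained rats, groups that did not overlap (-1.11, SE 0.57, adjusted p = 0.548), as in this direction for 5.61% of all probe sets. Emb, the partner of MCT2, lay between 6.11 and 6.90 on all arrays. The subunits of the mitochondrial pyruvate carrier, which admits pyruvate for oxidation, ranged from 12.36 to 12.87 for Mpc1 and from 10.43 to 11.63 for Mpc2, and the lowest value of both was HCR sedentary 2.

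The pathways that make and use lactate were followed through lists of genes, and no gene of the lists for glycolysis, glycogen, pyruvate oxidation, pyruvate side routes and shuttles, proton and bicarbonate handling, or regulators of these genes passed in any of the 7 comparisons. For training in HCR the median difference of 18 glycolysis genes was 0.27 (11 positive, 7 with an unadjusted p under 0.05 and positive), of 10 glycogen genes 0.27 (8 positive) and of 15 genes of side routes and shuttles 0.42 (14 positive, 9 with an unadjusted p under 0.05), against 0.0044 over all probe sets. Of all probe sets 51.1% were positive in this comparison, and 17.7% had an unadjusted p under 0.05 in either direction. Without HCR trained 3 these medians were 0.13, 0.21 and 0.28, and without HCR sedentary 2 as well they were 0.13, 0.14 and 0.20. Genes of small p in these lists were Pgk1, phosphoglycerate kinase (0.37, SE 0.09, adjusted p = 0.0833), Me3, mitochondrial malic enzyme (1.34, SE 0.30, adjusted p = 0.0656), and Gpt, alanine aminotransferase (0.63, SE 0.17, adjusted p = 0.103). For training in LCR the medians were 0.13, -0.06 and -0.03, against -0.02 over all probe sets. In the interaction, where 18.3% of all probe sets had an unadjusted p under 0.05, 14 of the 15 genes of side routes and shuttles were positive, with a median of 0.49 against 0.035 over all probe sets. That median was 0.34 without HCR trained 3 and 0.27 without both arrays. Me1, cytosolic malic enzyme, had the smallest p (0.94, SE 0.20, adjusted p = 0.0983).

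In trained rats, HCR against LCR, the smallest p in the lists for side routes, pyruvate oxidation, glycolysis and regulators belonged to Me1 (0.64, SE 0.14, adjusted p = 0.0563), Pdp2, a phosphatase that activates pyruvate dehydrogenase (-0.65, SE 0.14, adjusted p = 0.0569), Hk2, hexokinase (-1.24, SE 0.32, adjusted p = 0.0766) and Arnt, the partner of the hypoxia-inducible factors (-0.40, SE 0.12, adjusted p = 0.109). Pdp2 passed without HCR trained 3 (-0.47, adjusted p = 0.0440), where 0.821% of all probe sets passed, and so did its difference of line over both training states (-0.39, adjusted p = 0.0314), where 0.222% passed. HCR sedentary 2 is outside the comparison of trained rats and enters its fit only through the pooled spread. With that array alone left out, Me1 (0.64, adjusted p = 0.0297), Pdp2 (-0.65, adjusted p = 0.0357) and Hk2 (-1.24, adjusted p = 0.0475) passed in trained rats. Arnt did not, and the share of all probe sets that passed in that fit is not given here. Without HCR trained 3 and HCR sedentary 2 the difference in trained rats passed for Pdp2, Me1 (0.55, adjusted p = 0.0331), Hk2 (-1.37, adjusted p = 0.0334) and Prkaa2, an AMP-activated kinase subunit (-2.17, adjusted p = 0.0455), where 4.24% of all probe sets passed. Among the 12 regulators, Hif1a read 8.30 on HCR trained 3 and 9.0005 to 9.77 on the other arrays, Epas1 10.19 to 11.32, Ppargc1a, the coactivator of oxidative genes, 7.13 to 8.33, and Esrra 8.93 to 9.77. HCR sedentary 2 had the lowest Epas1, Ppargc1a and Esrra. The enzymes that regulate entry of pyruvate into oxidation spread widely for Pdk4 (8.87 to 11.89) and little for Pdha1 (12.22 to 12.58).

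**Figure D5:**
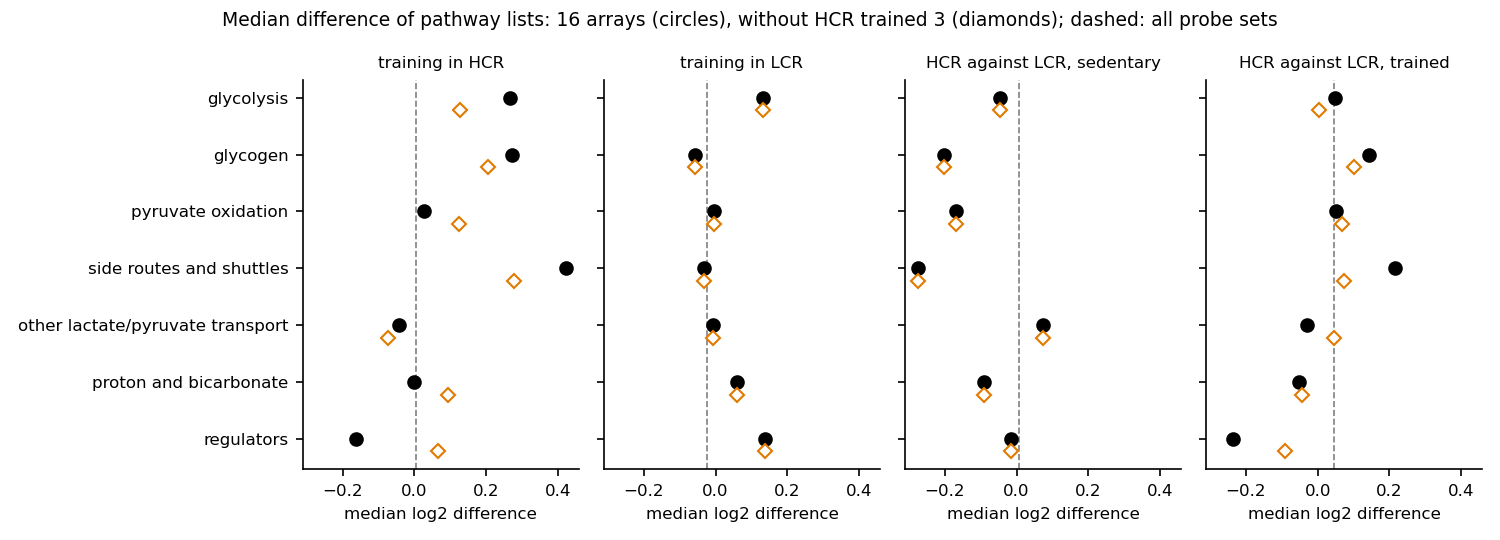
Points are medians of the log2 differences of the genes of each list, with 16 arrays (circles) and without HCR trained 3 (diamonds), and the dashed line is the median over all probe sets. For training in HCR the lists for glycolysis, glycogen and side routes lie at 0.27 to 0.42 with 16 arrays and at 0.13 to 0.28 without that array.

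The genes whose levels followed each gene most closely over the 16 arrays were ranked by Spearman's rank correlation among genes with 1 symbol and a mean at or above the 40th percentile. The correlation is a description here, since arrays of a group and the array that stood apart are among the points, and for the genes named first the value over the other 15 arrays follows after "then". Closest to Ldha were Tnni2 (0.91, then 0.89), Tpm1 (0.91, then 0.89), Tnnt3 (0.90, then 0.88) and Tnnc2 (0.89, then 0.87), followed by Ctsd. Of these, the fast-fibre genes Tnni2, Tnnt3 and Tnnc2 encode the subunits of fast troponin. Ldha followed the mean of the whole fast-fibre list less closely (0.46, then 0.34). Closest to Ldhb were Camta2 (0.90, then 0.88) and the slow tropomyosin gene Tpm3 (0.89, then 0.87), followed by Prob1, Htatsf1 and Sugp2. Slc16a1 was closest to Scp2, Acat1, Prdx6, Dele1 and Ndufa13 (0.88 to 0.89), of which Acat1 acts in ketone and isoleucine breakdown and Ndufa13 in respiratory complex I. Slc16a3 was closest to Agtrap (0.84, then 0.80) and Atp2a1, the calcium pump of fast fibres (0.82, then 0.78), with Gatad1, Sox6 and Echdc3. Bsg was closest to Akr1b8 (0.84, then 0.83), and its other neighbours, H1f2, Arfrp1, Ubl4a and Ccdc17, had correlations of 0.75 to 0.76.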

How the data were processed

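RNA from soleus muscle was hybridised to Affymetrix rat arrays, 1 rat per array and 4 rats per group. The authors deposited log2 values per probe set, made with RMA per the submitters' processing notes, which also name limma and give no versions; RMA subtracts background, makes the arrays' distributions equal and summarises probes, which can compress differences of dim probe sets. Arrays have no read depth, so precision is limited by how many there were. Groups were taken from the sample titles. Genes were named from the platform annotation (20826 probe sets with 1 symbol, 436 with several, 9780 with none), and 57 control probe sets were left out. The 4 group means were fitted to all 31042 probe sets with limma 3.58.1 in R 4.3.3, with 12 residual degrees of freedom, moderated variances and Benjamini-Hochberg adjustment over all probe sets at 0.05. The script was tested on simulated data with independent normal noise. No simulated array stood apart, so that test does not cover arrays that do. A gene with several probe sets was represented by the brightest. For the pathway and marker lists, genes that passed, up to 4 of smallest p per list and comparison, and a fixed set of further genes could be named. The members and lists were chosen with earlier results of these data known. Alternatives covered normalization, centring, filters, variance models, covariates, weights, a replicate block and arrays left out. One fit, and the lists and named list genes without the arrays that stood apart, were added after seeing the data.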

Additional observations from a re-analysis of the deposited data

Results flagged for a closer look

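Among 32 checks of a main or second probe set or a balance within a group of 4 arrays, 4 values lay further from their group than Dixon's 95% limit for the gap over the range, a limit that chance passes in about 1 of 20 groups. Ldhb read 12.55 on HCR sedentary 2, where the other 3 sedentary HCR arrays read 13.43 to 13.52. Ldhb read 11.24 on HCR trained 3, where the other 3 trained HCR arrays read 13.37 to 13.48. Slc16a1 read 10.27 on LCR trained 2, where the other 3 read 10.81 to 10.88. Slc16a1 read 10.55 on LCR sedentary 1, where the other 3 read 10.84 to 10.87; the fibroblast and matrix mean of that array was -0.65.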

How the results depend on the processing

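Of 846 alternative values for 39 differences of the 6 probe sets, 2 passed, both for Ldha with the fibre index as a covariate and both with the sign turned (adjusted p = 0.0443 for training in HCR and 0.0430 for trained HCR against LCR in limma). Those 2 are among 104 values with the sign opposite to the 16-array fit, and the cause was not tested beyond the arrays and covariates named. The share of all probe sets that passed with the fibre index is not given here, so whether the 2 are unusual cannot be read. With the fibre index (slow minus fast marker mean) as a covariate, training in HCR gave -0.62 for Ldha, 0.59 for Ldhb, 0.15 for Slc16a1 and -0.11 for Slc16a3, and training in LCR gave 0.012 for Ldhb. Trained HCR against LCR gave -0.62 for Ldha, 0.48 for Ldhb, 0.025 for Slc16a1 and -1.03 for Slc16a3, and the interaction gave -0.62 for Ldha, 0.58 for Ldhb, 0.16 for Slc16a1 and -0.36 for Slc16a3. Training over both lines gave -0.31 for Ldha, 0.30 for Ldhb and 0.067 for Slc16a1, and line over both training states gave -0.30 for Ldha and 0.19 for Ldhb. With the same covariate and HCR trained 3 left out, an alternative chosen after seeing the data, training in HCR gave -0.63 for Ldha, 0.47 for Ldhb, 0.28 for Slc16a1, -0.35 for Slc16a3 and -0.050 for Bsg, and training in LCR gave -0.0037 for Ldha and 0.053 for Slc16a1. Trained HCR against LCR gave -0.63 for Ldha, 0.38 for Ldhb, 0.13 for Slc16a1 and -1.21 for Slc16a3, and the interaction gave -0.63 for Ldha, 0.52 for Ldhb, 0.23 for Slc16a1 and -0.48 for Slc16a3. Training over both lines gave -0.32 for Ldha, 0.21 for Ldhb, 0.17 for Slc16a1, -0.11 for Slc16a3 and -0.0018 for Bsg, and line over both training states gave -0.31 for Ldha, 0.13 for Ldhb and 0.015 for Slc16a1. With HCR sedentary 2 and HCR trained 3 left out together, training in HCR gave -0.042 for Ldha, and sedentary HCR against LCR gave -0.061 for Ldha, 0.039 for Ldhb and 0.14 for Slc16a1. Trained HCR against LCR gave -0.27 for Ldha, 0.15 for Ldhb and -0.37 for Slc16a3, and the interaction gave -0.21 for Ldha, 0.11 for Ldhb and 0.17 for Bsg. Line over both training states gave -0.17 for Ldha and 0.095 for Ldhb. With array weights, sedentary HCR against LCR gave -0.052 for Ldha and 0.046 for Slc16a1, and trained HCR against LCR gave -0.22 for Ldha, 0.012 for Ldhb and -0.19 for Slc16a3. The interaction gave -0.17 for Ldha, 0.028 for Ldhb and 0.23 for Bsg, and line over both training states gave -0.14 for Ldha. With the ratio of the beta-actin control probe sets as a covariate, training in LCR gave -0.091 for Ldha, 0.14 for Ldhb and 0.16 for Slc16a1, and sedentary HCR against LCR gave -0.23 for Ldha, 0.18 for Ldhb and 0.13 for Slc16a1. The interaction gave 0.14 for Bsg, and line over both training states gave 0.052 for Slc16a3. With median centring, the interaction gave 0.012 for Bsg. With quantile normalization, line over both training states gave 0.0045 for Slc16a3. With each array left out in turn, training in HCR ranged from -0.20 to 0.56 for Ldha, from -0.60 to 0.19 for Ldhb and from -0.071 to 0.25 for Bsg, and training in LCR ranged from -0.16 to 0.061 for Slc16a1. Sedentary HCR against LCR ranged from -0.061 to 0.24 for Ldha, from -0.28 to 0.039 for Ldhb and from -0.35 to 0.14 for Slc16a1, and trained HCR against LCR ranged from -0.27 to 0.49 for Ldha, from -0.60 to 0.15 for Ldhb and from -0.37 to 0.88 for Slc16a3. The interaction ranged from -0.36 to 0.40 for Ldha, from -0.44 to 0.34 for Ldhb, from -0.47 to 0.025 for Slc16a1 and from -0.18 to 0.14 for Bsg, and training over both lines ranged from -0.015 to 0.37 for Ldha and from -0.38 to 0.013 for Ldhb. Line over both training states ranged from -0.089 to 0.29 for Ldha and from -0.44 to 0.18 for Slc16a3. The replicate numbers were not taken as a pairing of the rats. Same-numbered arrays of different groups had deviations that correlated between -0.48 and 0.57, with 8 of 24 over 0.1. Their median was 0.032, against 0.015 for arrays of other numbers. These values cannot show whether the numbers stand for a pairing or a batch. With a replicate block Slc16a3 for training in HCR was 1.52 (adjusted p = 0.271 in limma) and no member passed. The count of all probe sets that passed ranged over the alternatives from 0 to 1304 for training in HCR (58 with 16 arrays), 0 to 321 for training in LCR (1), 1 to 10 for sedentary HCR against LCR (3), 5 to 3525 for trained HCR against LCR (116), 0 to 233 for the interaction (0), 0 to 1148 for training over both lines (2) and 15 to 338 for line over both training states (27); each highest count came with array weights, except 10 for the sedentary lines, with both arrays left out. The mean over probe sets of a gene could change only the transporter balance, since the LDH genes have 1 each. The second Slc16a1 probe set, at 5.28 to 6.05 near the dim end, allows little to be read from its differences.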
